A study of Mus musculus with 9 samples.

Results

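Endocardium, the endothelium that lines the inside of the heart chambers, was compared with the endothelium of the coronary vessels in the heart wall. The question was what set endocardial cells apart from arterial-enriched and from venous-enriched coronary cells at once. The samples were chosen by their labels, and the comparison used all 9 libraries of the series, 3 endocardial against 6 coronary, of which 3 were arterial and 3 venous. The coronary level was the mean of the arterial and the venous group mean on the log scale, so that each coronary group had equal weight. All groups came from ventricles of mouse embryos collected at E17.5 that carried 3 alleles, R26 (tom/+), Nes-CreER(Tg/0) and also Nes-Gfp(Tg/0), and that had received 0.1 ug of tamoxifen at E15.5. Nes is the gene after which the GFP and CreER transgenes are named, and the atria and the region of the aorta had been removed. Every cell was sorted as Ter119-, CD45-, CD31+ and GFP+, where Ter119 marks red cells, CD45 leukocytes and CD31 (Pecam1) endothelium. The arterial gate, for intramyocardial arteries and capillaries, added low endomucin (Emcn) and Tomato+. The venous gate, for subepicardial veins, added low endomucin, absent Tomato and low GFP. The endocardial gate as written added no condition on endomucin or Tomato, so that it did not by itself leave out other CD31+ GFP+ cells. Whether replicates came from separate embryos is not stated, and p-values reflect only how far libraries of a group differ, which can be technical in part.

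Endocardium and coronary endothelium are both endothelial, but their surroundings differ. The endocardium faces the blood of the chambers, sends growth factors to the muscle beneath it and gives rise to the mesenchyme of the valves. It is known for the natriuretic peptide receptor Npr3 and the transcription factor Nfatc1. Coronary endothelium forms a branching plexus that grows under VEGF and hypoxia, matures into arteries, capillaries and veins, and carries fatty acids to the muscle.

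The labels were checked against 5 marker genes, with levels in CPM, the counts of a gene scaled to a common library size (TMM). Npr3, a receptor that clears natriuretic peptides, stood at 2080, 2420 and 2450 CPM in the endocardial libraries, at 35.2, 26.7 and 15.2 CPM in the arterial and at 65.2, 38.8 and 43.1 CPM in the venous libraries. Adgrg6, an adhesion G protein-coupled receptor, had 392, 484 and 417 CPM in endocardial, 3.10, 3.57 and 3.09 CPM in arterial libraries and 12.8, 13.4 and 14.1 CPM in venous libraries. The cadherin Cdh11 was at 903, 962 and 1120 CPM in endocardial libraries, against 5.87 to 9.66 CPM in arterial and 37.7 to 69.0 CPM in the venous libraries. In each of these genes the lowest endocardial library lay far above the highest coronary one. Fabp4, a fatty acid carrier of capillary endothelium, went the other way, with 93.7, 129 and 137 CPM in endocardial libraries and 1140 to 1430 CPM in the 6 coronary ones. The same held for the butyrophilin-like gene Btnl9, at 40.3, 27.2 and 36.4 CPM in endocardial, 696 to 703 CPM in arterial and 348 to 542 CPM in the venous libraries. The 5 markers therefore stood as the labels say in all 9 libraries. The genes used for sorting are no result. Emcn, low by the coronary gates, had 639 to 755 CPM in endocardial and 166 to 267 CPM in coronary libraries, and Nes had 148 to 150 CPM against 353 to 578 CPM. In bulk libraries, fewer cells of a type and less RNA per cell cannot be told apart.

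Libraries held between 12750553 and 19474419 counts, and genes were tested with the quasi-likelihood F test of edgeR with Benjamini-Hochberg adjustment over the 17103 genes that passed a filter on low counts. A gene was called at an adjusted p under 0.05. Against the coronary mean, 2379 genes were called (13.9% of those tested), 1181 higher in endocardial libraries (6.91%) and 1198 lower (7.0%), which is the background for every list below. Against arterial libraries alone 1996 genes were called (11.7%; 5.75% higher and 5.92% lower), against venous libraries alone 1753 (10.2%; 4.44% higher and 5.81% lower), and between the arterial and venous libraries 183 (1.07%; 0.31% higher in arterial and 0.76% higher in venous libraries). A gene was taken as apart from both coronary groups where it was called in the same direction in both of the first 2 of these comparisons, which share the endocardial libraries. This held for 1352 genes (7.91%), with 602 above both (3.52%) and 750 below both (4.39%). The endocardial libraries did not overlap the coronary ones in 598 of the 602 and 743 of the 750, against 8.56% of all genes tested that lay above without overlap and 9.08% below. The 602 and 750 were picked on these same libraries, so that this adds no separate support. Endocardial replicate 1 stood apart from its group on the first 2 principal components. On the first it was at 35, against 115 and 117, toward the venous libraries (-21.3 to -10.5). On the second it was at 139, against 1.8 and -16.2. It correlated by 0.843 to 0.847 with the other endocardial libraries and by 0.833 to 0.847 with the venous ones. It had 21101 genes above 0 against 17337 and 17130. Without it, 2493 genes were called and 1464 were apart from both groups.

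**Figure D1:**
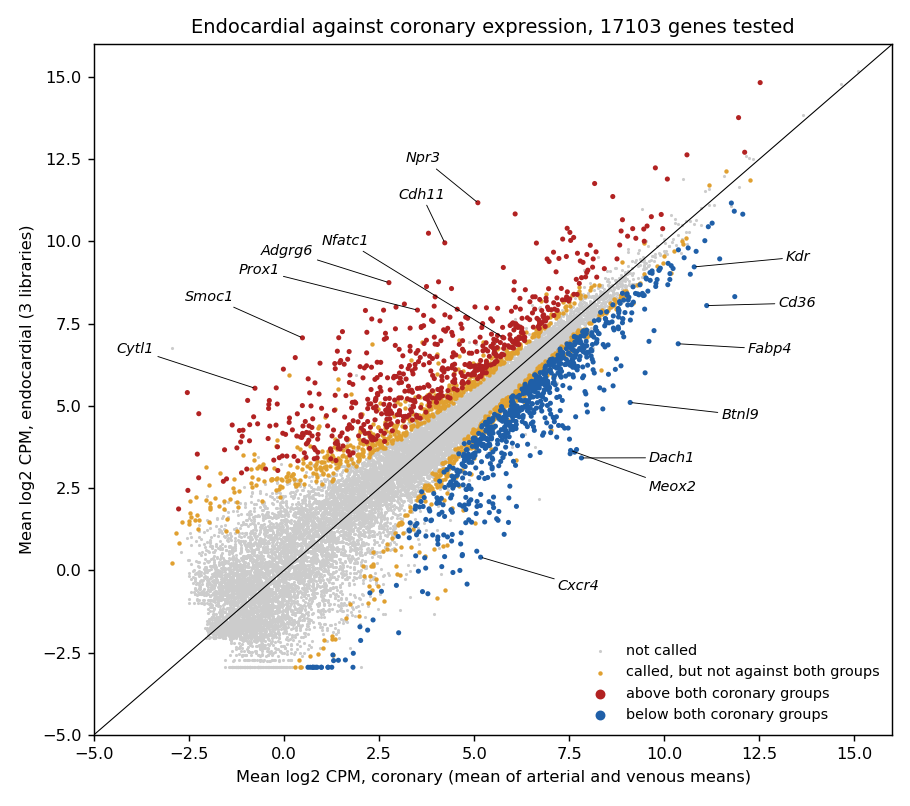
Mean log2 CPM of each of 17103 genes in the 3 endocardial libraries (vertical axis) against the coronary level (horizontal axis, mean of the arterial and venous means); the line marks equal levels. Red points are the 602 genes above both coronary groups, blue points the 750 below both, orange points the other called genes and grey points those not called.

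Rises were larger than falls among the genes apart from both. The median size of the log2 fold change was 1.99 for the 602 genes above both and 1.36 for the 750 below both. A log2 fold change of at least 3 was reached by 162 of the former and 81 of the latter. Most of these genes did not pass the test of arterial against venous libraries, namely 522 of the 602 and 730 of the 750. Of the remaining 80 above both, 74 were higher in venous than in arterial libraries, and of the remaining 20 below both, 18 were higher in arterial than in venous libraries. A gene called against the coronary mean was not always apart from both. Of the 1181 higher genes, 318 (26.9%) were called against arterial libraries but not venous ones, 119 (10.1%) against venous but not arterial ones and 142 (12%) against neither. Of the 1198 lower genes, 190 (15.9%) were called against arterial libraries alone and 184 (15.4%) against venous ones alone. Each of the 1352 genes had its direction in all 3 batches, each batch being 1 library per group. Over all genes tested, 44.6% had 1 direction. The 1352 were picked on these same libraries, so that this agreement was close to fixed in advance and is no replication.

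Among the largest rises by the naming rule, Smoc1, a calcium-binding matrix protein that binds BMPs, had 89.8, 156 and 171 CPM in endocardial libraries against 0.515 to 1.04 CPM in arterial and 1.95 to 2.37 CPM in the venous libraries, a log2 fold change of 6.75 (SE 0.25, edgeR adjusted p = 4.06e-11). Adgrg6 rose by a log2 fold change of 6.02 (SE 0.15, edgeR adjusted p = 2.32e-13), Npr3 by 6.03 (SE 0.25) and Cdh11 by 5.71 (SE 0.21). Other rises of this rank were the myelin and lymphocyte protein gene Mal at 6.32 (SE 0.30), the protocadherin Pcdh7 at 5.57 (SE 0.35), the endocardial marker Tmem108 at 5.31 (SE 0.22), the peptidase Dpp4 at 5.30 (SE 0.28) and the fibrinogen-like Fgl2 at 5.22 (SE 0.35). In none of them did an endocardial library come near a coronary one, and the venous level exceeded the arterial one in each. Cytl1, a small secreted protein, had 30, 49.4 and 66.6 CPM in endocardial libraries and 4 counts in the 3 arterial libraries together, against 94 in the venous ones. The tight junction gene Cldn11 had 59.2 to 88.8 CPM in endocardial libraries and 10 counts in the arterial ones. With so few arterial counts the size of the fold is loose: without arterial replicate 2 the log2 fold change moved from 6.88 to 8.64 for Cytl1 and from 6.22 to 6.96 for Cldn11.

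Among the largest falls by the same rule, Cxcr4, the receptor of the chemokine Cxcl12, had 1.53, 1.01 and 1.09 CPM in endocardial libraries, 63.1, 74.5 and 87.3 CPM in arterial and 20.2, 18.9 and 13.5 CPM in the venous libraries (log2 fold change -4.90, SE 0.30, edgeR adjusted p = 6.38e-09). Dach1, a transcription factor of coronary artery growth, had 17.5, 5.55 and 12 CPM in endocardial libraries against 153 to 350 CPM in the coronary ones (log2 fold change -4.29, SE 0.36). Nr5a2, a nuclear receptor, was at 0.407 to 1.60 CPM against 18.8 to 36.1 CPM. The sialyltransferase St8sia6 was at 1.49 to 3.90 CPM against 116 to 128 CPM in arterial and 24.4 to 35.2 CPM in the venous libraries. Ly6c1, a surface protein with near-identical neighbours whose reads the counting could share, was at 10.1 to 15.6 CPM against 124 to 310 CPM. Prnd, which encodes the prion-like protein doppel, was at 9.37 to 14.4 CPM against 109 to 295 CPM. Btnl9 fell by 4.0 on the log2 scale (SE 0.20) and Meox2 by 3.90 (SE 0.21). The arterial transcription factor Sox17 fell by 3.82 (SE 0.41), and without endocardial replicate 1 its log2 fold change was -4.44. All of these were below both coronary groups with no overlap between libraries. Sez6l2 rested more on single libraries: its log2 fold change of -4.99 became -6.63 without endocardial replicate 3, the library in which it was highest.

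**Figure D2:**
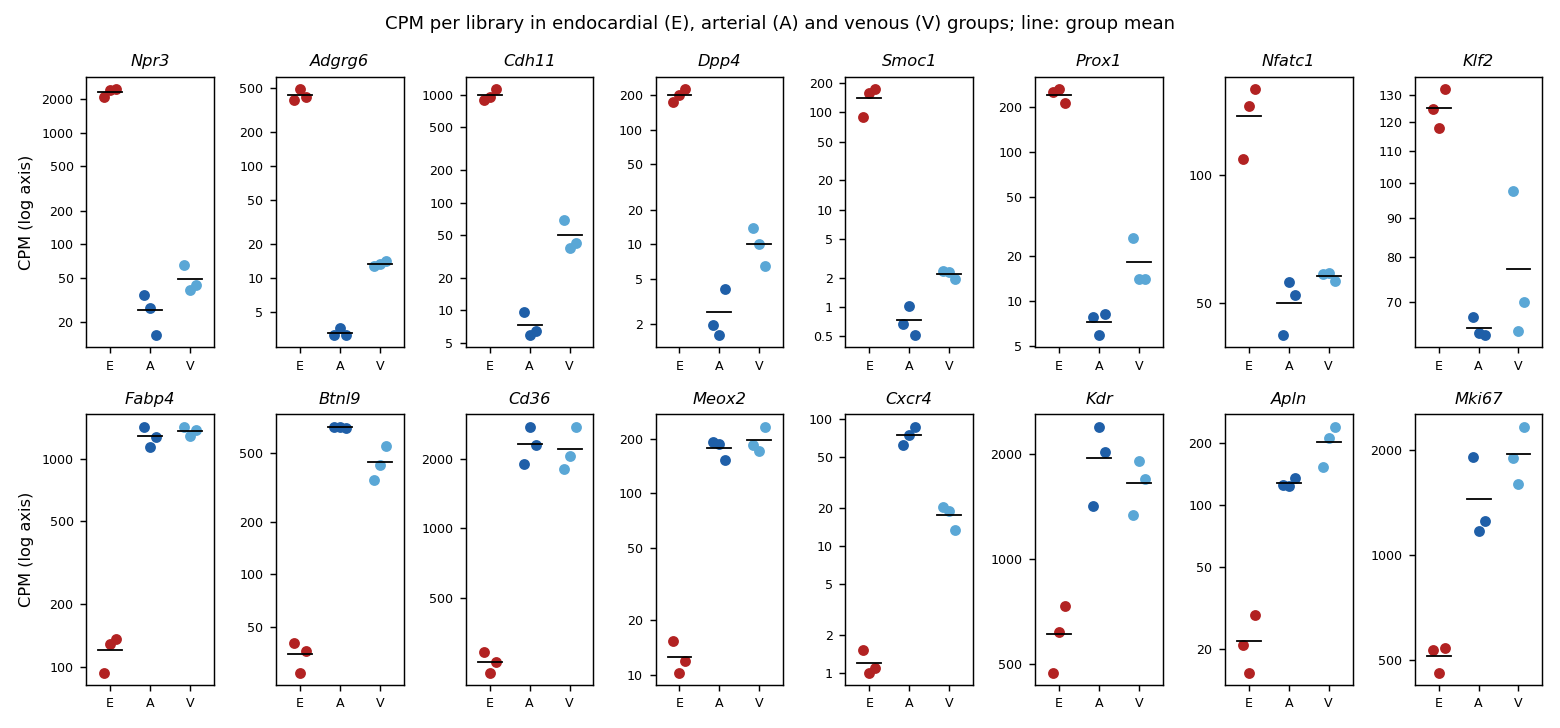
CPM in each library (log axes that differ between panels) for 8 genes higher in endocardial libraries (top) and 8 lower (bottom), with the 3 endocardial (E), 3 arterial (A) and 3 venous (V) libraries as points and the group mean as a line. The endocardial points of Npr3 lie between 2080 and 2450 CPM and the coronary ones between 15.2 and 65.2 CPM, and in no panel do endocardial and coronary points overlap.

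The bases before the start were sought for Npr3, Adgrg6, Cdh11, Smoc1, Fabp4, Btnl9 and Meox2. They are shown for Npr3 and Meox2, whose windows were in the RefSeq table and lay wholly outside the gene model. The windows are 250 bases upstream of the RefSeq start (GRCm38.p6), given 5′ to 3′ on the strand of the gene, for Npr3 at chr15:11907372-11907621 (minus strand) and Meox2 at chr12:37108290-37108539 (plus strand), both just outside the gene model. No capitals are set, since neither window held any of 4 motifs searched on both strands: AGATAA for GATA factors, AACAAT for SOX factors, AGGTCA for nuclear receptor half-sites and AGGAAG for ETS factors.
Npr3: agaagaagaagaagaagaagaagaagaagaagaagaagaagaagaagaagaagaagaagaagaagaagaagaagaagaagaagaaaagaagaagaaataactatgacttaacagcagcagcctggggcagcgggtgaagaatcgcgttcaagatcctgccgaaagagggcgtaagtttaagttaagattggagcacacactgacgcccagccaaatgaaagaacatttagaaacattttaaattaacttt
Meox2: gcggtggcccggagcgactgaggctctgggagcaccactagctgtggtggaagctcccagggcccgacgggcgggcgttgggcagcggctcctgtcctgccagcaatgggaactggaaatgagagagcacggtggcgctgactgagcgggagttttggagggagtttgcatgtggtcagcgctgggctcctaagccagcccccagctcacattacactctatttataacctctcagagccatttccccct
The Npr3 window opens with a run of aga and gaa triplets. Over the windows of all tested genes in the RefSeq table (12045 genes), 6.33% held AGATAA, 5.72% AACAAT, 11.2% AGGTCA and 28.2% AGGAAG. The shares over windows of genes above both groups (459 of 602 matched) were 5.45%, 6.27%, 8.91% and 27.7%, and over those of genes below both (567 of 750 matched) 5.19%, 5.05%, 11.6% and 29.8%. These shares carry no test. Each motif was counted whether or not it overlapped another, and the 4 were picked with the results known. Btnl9, not shown because its sequence did not lie wholly outside the gene model, held 2 matches of AGGAAG on the reverse strand. This motif was in 28.2% of the windows of tested genes.

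Endocardial marker genes were nearly all higher. Of 20 tested members, 17 were higher than the coronary mean and none lower, with 13 above both groups and a median log2 fold change of 4.11, against 0.08 over all genes tested. Members of this and the other lists were chosen with earlier results of these data known, so that list counts describe the data and test nothing. This list holds Npr3, Adgrg6 and Cdh11, used above to check the labels. Nfatc1, the transcription factor of endocardium and valves, had 109, 145 and 159 CPM in endocardial, 42.0, 56.0 and 52.2 CPM in arterial and 58.5, 58.8 and 56.4 CPM in the venous libraries. Its libraries did not overlap, and its log2 fold change of 1.35 (SE 0.16, edgeR adjusted p = 1.37e-05) was the smallest of the 13 above both. Plvap, which forms the diaphragms of fenestrae and caveolae, had 79.5, 230 and 195 CPM against 0.368 to 1.70 CPM in arterial and 4.92 to 13.1 CPM in the venous libraries. The other 4 called members were called against arterial libraries alone. Tbx20, a T-box factor, was at 80.1 to 100 CPM in endocardial, 13 to 15.1 CPM in arterial and 114 to 177 CPM in the venous libraries, so that the venous libraries were highest; its log2 fold change of 1.00 lost the call with the coronary libraries as 1 group (edgeR adjusted p = 0.949). Gata4, a zinc-finger factor of the heart, had 28.3, 57.7 and 58.9 CPM, 0.0735 to 1.47 CPM and 5.12 to 15.3 CPM (edgeR adjusted p = 0.0532 against venous libraries, and 0.117 against the coronary libraries as 1 group). Gata5 and the link protein Hapln1 completed this set, with edgeR adjusted p = 0.0596 and 0.508 against venous libraries. Ccn3, Dkk3 and Fgf1 were not called.

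Among 19 tested transcription factors of heart development, 10 were higher and 4 lower, with 7 and 3 apart from both groups and a median log2 fold change of 1.64. Of the higher members, Gata4, Gata5, Tbx20, Hand2 and Foxc1 were already counted among the endocardial markers. Foxc1, a forkhead factor, had 197 to 239 CPM in endocardial, 12.3 to 13.8 CPM in arterial and 23.2 to 32.7 CPM in the venous libraries (log2 fold change 3.54, SE 0.16, edgeR adjusted p = 2.1e-10). Its relative Foxc2 rose by 2.49 (SE 0.28), Gata6 by 2.04 (SE 0.18) and Hand2, a bHLH factor of the ventricles, by 4.26 (SE 0.47). The Iroquois genes Irx3, Irx5 and Irx6 rose by 3.02, 4.24 and 4.66 on the log2 scale. All of these were above both coronary groups. Mef2c, with 89.7 ± 10.4 CPM (SD, n = 3) in endocardial, 253 ± 23.4 CPM in arterial and 246 ± 9.21 CPM in the venous libraries, was below both, as were Tbx3 and Msx1. Tbx3 had a log2 fold change of -3.69, and of -4.48 without endocardial replicate 1.

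The natriuretic peptide system was represented by 8 tested genes, of which 3 were above both groups and none was lower; with batch as a block or no filter, 1 was lower. Beside Npr3 these were Corin, the protease that activates atrial natriuretic peptide, and Prkg1, a cGMP-dependent kinase. Corin had 40.1, 35.5 and 51.8 CPM in endocardial, 0.294 to 1.96 CPM in arterial and 1.89 to 3.61 CPM in the venous libraries (log2 fold change 4.65, SE 0.41). Prkg1 had 39.3, 51.7 and 30.5 CPM against 1.92 to 2.65 CPM and 3.38 to 5.26 CPM (log2 fold change 3.75, SE 0.28). The signalling receptors did not pass the test: Npr1 had 51.5 ± 17 CPM in endocardial, 64.6 ± 25.3 CPM in arterial and 94.0 ± 26.6 CPM in the venous libraries (SD, n = 3), and Npr2 28.3 ± 8.96, 18.0 ± 7.15 and 20.5 ± 7.2 CPM. Npr1 was called lower with batch as a block (log2 fold change -0.60, edgeR adjusted p = 0.0201) and with no filter on low counts (-0.63, edgeR adjusted p = 0.0184). The ligand genes Nppa and Nppb did not pass the filter on low counts.

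Genes known from lymphatic and venous endothelium were among the rises. Of 11 tested lymphatic markers, 8 were higher and none lower, with 6 above both and a median log2 fold change of 3.68. Prox1, the transcription factor that sets lymphatic identity, had 250, 261 and 213 CPM in endocardial, 5.93 to 8.16 CPM in arterial and 14.1 to 26.5 CPM in the venous libraries (log2 fold change 4.39, SE 0.21, edgeR adjusted p = 3.64e-10). Reln, a secreted glycoprotein, had 139, 147 and 157 CPM against 3.92 to 13.9 CPM in coronary libraries. Lyve1, a hyaluronan receptor, had 214, 234 and 272 CPM against 0.691 to 6.93 CPM in arterial and 6.79 to 11.4 CPM in the venous libraries, and its log2 fold change of 5.52 became 6.21 without arterial replicate 1. Ccl21a, a chemokine with near-identical copies among which reads could be split, had 34.5, 38.6 and 56.4 CPM in endocardial libraries, no count in the arterial and 11 in the venous libraries. Flt4, the VEGF-C receptor, and Pdpn were not called: Flt4 had 86.4 ± 30.3 CPM in endocardial, 86.6 ± 20.5 CPM in arterial and 118 ± 50.9 CPM in the venous libraries, and Pdpn 2.86 ± 2.08, 0.215 ± 0.324 and 0.524 ± 0.196 CPM (SD, n = 3). How many lymphatic cells passed the endocardial gate was not tested. The summed level of the list was 915 to 1040 CPM in endocardial, 129 to 142 CPM in arterial and 164 to 241 CPM in the venous libraries.

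Of 14 tested venous markers, 7 were higher than the coronary mean and 2 lower, and 6 were above both groups, venous libraries included. Nr2f2, the transcription factor of venous identity, had 113, 130 and 126 CPM in endocardial, 17.9 to 22.5 CPM in arterial and 49.0 to 63.7 CPM in the venous libraries (log2 fold change 1.91, SE 0.16, edgeR adjusted p = 2.39e-07). The groups thus stood in the order endocardial, venous, arterial, each step being called (edgeR adjusted p = 0.000571 against venous libraries and 0.000547 between venous and arterial ones). Cpe, carboxypeptidase E, had 1700 to 1920 CPM against 22.4 to 42.4 CPM in arterial and 104 to 207 CPM in the venous libraries. Tek, the angiopoietin receptor, rose by 1.05 on the log2 scale (SE 0.13). Aplnr, the apelin receptor of coronary veins, fell, from 384 ± 54.4 CPM in venous and 155 ± 38.9 CPM in arterial to 43.3 ± 5.50 CPM in endocardial libraries (SD, n = 3), and Nrp2 fell by 1.25 on the log2 scale (SE 0.15).

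Signals that the endocardium is known to send to the myocardium were higher in part, and 10 of the members below did not pass the test. In a list of 21 tested genes for neuregulins, endothelin, insulin-like growth factors and other cues, 9 were higher and 2 lower, with 7 and 2 apart from both groups. Nrg1, the neuregulin of trabecular growth, had 29.7, 31.8 and 48.1 CPM in endocardial libraries, 6 counts in the 3 arterial libraries together and 1.89 to 3.02 CPM in the venous ones. Its log2 fold change of 5.94 became 6.76 without arterial replicate 2. Edn1, endothelin 1, had 57.7, 76.2 and 67.1 CPM against 6.77 to 21.2 CPM in coronary libraries (log2 fold change 2.14, SE 0.27), and its processing enzyme Ece1 and receptor Ednrb rose by 2.57 (SE 0.18) and 2.73 (SE 0.15). Endocardial Ednrb was at 980, 1120 and 1130 CPM against 121 to 193 CPM in the 6 coronary libraries. Igf2, an insulin-like growth factor, had 9930, 15800 and 17100 CPM against 3400 to 4750 CPM, and its binding protein Igfbp5 had 2730, 4120 and 3700 CPM against 170 to 475 CPM (log2 fold changes 1.84 and 3.61). The 2 members below both were Igfbp3 (log2 fold change -2.17, SE 0.19) and Pdgfb, the ligand that recruits mural cells (-2.26, SE 0.38).

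In the BMP and TGF-beta pathway 12 of 32 tested genes were higher and 4 lower, 11 and 3 of them apart from both groups. By role, the ligands Inhba, Tgfb2 and Bmp6 rose by 4.86, 2.64 and 2.04 on the log2 scale, and Bmp2 fell by 1.17, called against arterial libraries alone. Among receptors, Bmpr1a had 154, 170 and 188 CPM in endocardial, 3.98 to 9.56 CPM in arterial and 18.0 to 22.1 CPM in the venous libraries (log2 fold change 3.76, SE 0.22, edgeR adjusted p = 3.68e-09), and Tgfbr3 and Acvr1 rose by 1.93 and 0.94, while Acvr2a fell by 1.01. The targets split: Id2 had 122 to 134 CPM against 12.9 to 32.7 CPM in coronary libraries (log2 fold change 2.81), Id1 fell by 1.23 and Id3 was not called (-0.10, SE 0.18). The TGF-beta-induced matrix protein Tgfbi had 155 to 172 CPM, 1.47 to 2.25 CPM and 23.2 to 30.6 CPM in endocardial, arterial and venous libraries, and its log2 fold change of 4.44 lost the call with the coronary libraries as 1 group (edgeR adjusted p = 0.0801). Of 30 tested Wnt pathway genes, 9 were higher and 3 lower, but only 3 and 1 were apart from both groups; the 3 lower became 1 without endocardial replicate 2, endocardial replicate 3 or venous replicate 1. The ligand Wnt2 had 25.3, 14.6 and 24.3 CPM against 0.0617 to 1.69 CPM in coronary libraries (log2 fold change 4.70, SE 0.59), the receptor Fzd1 rose by 1.99 (SE 0.24) and Apcdd1, an inhibitor of the pathway, by 2.77 (SE 0.31).

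Matrix and valve genes rose in part, and 5 collagen chains were lower in endocardial than in venous libraries. Of 26 tested collagen chains, 11 were higher and 1 lower, with 7 and 1 apart from both groups; 3 were lower with batch as a block, library totals alone or no filter, 4 with DESeq2, 2 without arterial replicate 1 or venous replicate 1, and with the coronary libraries as 1 group 5 were higher. Col23a1, a transmembrane collagen, had 183, 310 and 296 CPM against 5.07 to 14.6 CPM in coronary libraries (log2 fold change 5.07, SE 0.26), and the fibrillar Col5a2 had 598, 745 and 816 CPM against 94.1 to 198 CPM (2.25, SE 0.14). Col15a1, of basement membranes, fell by 2.53 (SE 0.21). Fibronectin (Fn1) had 3500, 5460 and 5850 CPM against 628 to 1040 CPM in coronary libraries (log2 fold change 2.49, SE 0.16, edgeR adjusted p = 4.68e-08). Biglycan (Bgn) had 424, 783 and 619 CPM against 19.5 to 30.5 CPM in arterial and 111 to 141 CPM in the venous libraries. Versican (Vcan), a proteoglycan of the cardiac jelly, had 1120, 787 and 1090 CPM, 21.1 to 45.3 CPM and 246 to 440 CPM in these groups, and periostin (Postn), a valve and fibroblast matrix protein, 953 to 1140, 55.0 to 70.4 and 536 to 613 CPM. Both lay above venous libraries in this fit, but lost the call with the coronary libraries as 1 group (edgeR adjusted p = 0.184 and 0.342). Taking them as 1 group counts the gap between arterial and venous libraries as spread. A call lost in that way need not mean a small endocardial difference. In the list of hyaluronan and proteoglycan genes 10 of 28 were higher and 4 lower, 6 and 3 of them apart from both. In the list for the transition to mesenchyme and valves, 8 of 22 were higher and 6 lower, 7 and 4 of them apart from both. The EMT factor Zeb2 rose by 1.22 and Snai2 fell by 1.53, from 34.4 to 47.8 CPM in the coronary libraries to 8.94 to 18.4 CPM. With the coronary libraries as 1 group, 5 members of each of these 2 lists were higher.

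Fibroblast markers share Col1a1, Col1a2, Col3a1, Dcn, Lum, Ogn, Postn and Twist1 with the collagen, proteoglycan and valve lists. Their counts thus repeat those lists in part, and their part in the result was not tested. Of 16 tested, 7 were higher and 1 lower against the coronary mean, with 4 above both groups; 2 were lower with batch as a block, no filter or without endocardial replicate 1, none with upper-quartile scaling or limma-voom, none without any other library except arterial replicate 3, and with the coronary libraries as 1 group 1 was higher and none lower. Against venous libraries alone 4 were higher and 4 lower, with a median log2 fold change of -0.7. The summed level was 1720 to 2060 CPM in endocardial, 121 to 143 CPM in arterial and 1480 to 1720 CPM in the venous libraries. The members above both were Postn, Pdgfra, Mfap5 and Lum. Pdgfra, a fibroblast and valve mesenchyme receptor, had 103 to 123 CPM in endocardial, 2.58 to 3.46 CPM in arterial and 25.7 to 39.3 CPM in the venous libraries, and lost the call with the coronary libraries as 1 group (edgeR adjusted p = 0.134), as did Lum (0.188). The defining collagen Col1a1 had 21.2 to 37.1 CPM in endocardial, 4.04 to 8.84 CPM in arterial and 126 to 179 CPM in the venous libraries. The fibroblast genes Dpt and Tcf21 were low in endocardial libraries, at 0.144 to 4.0 and 0.407 to 2.67 CPM, against 31.8 to 38.5 and 2.97 to 6.92 CPM in venous ones. The venous libraries thus carried the most Col1a1 and Dpt, and Dpep1 was at 0 in the arterial libraries and at 0.0721 CPM on average in the endocardial ones.

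On the coronary side, capillary markers fell almost without exception. Of 19 tested, 18 were below both coronary groups and 1 above both, with a median log2 fold change of -3.13. Cd36, the fatty acid translocase, had 293, 239 and 265 CPM in endocardial, 1890, 2740 and 2280 CPM in arterial and 1800, 2050 and 2740 CPM in the venous libraries (log2 fold change -3.08, SE 0.18, edgeR adjusted p = 3.47e-09). Sparcl1, a matricellular protein, had 289 to 355 CPM against 2620 to 4830 CPM, and Meox2, a homeobox factor of capillary endothelium, 10.3 to 15.4 CPM against 152 to 233 CPM. Arterial and venous libraries overlapped in all of these 3 genes. Gpihbp1, which anchors lipoprotein lipase to capillaries, fell by 3.13 (SE 0.38) and the carbonic anhydrase Car4 by 3.31 (SE 0.48). The exception was Fabp5, a fatty acid binding protein, at 475 ± 139 CPM in endocardial, 178 ± 16.1 CPM in arterial and 240 ± 31.7 CPM in the venous libraries (SD, n = 3; log2 fold change 1.2, SE 0.17). In the list for fatty acid uptake and use, which shares Cd36, Fabp4, Fabp5, Gpihbp1, Lpl, Meox2, Pparg and Tcf15 with the capillary list, 10 of 27 were lower and 3 higher, 9 and 1 of them apart from both. The lipase gene Lpl fell by 1.41, its inhibitor Angptl4 by 2.89 and the nuclear receptor Pparg by 3.59 on the log2 scale, while the members called higher were Fabp5, Ppargc1a and Vegfb. The transporters Slc27a1, Slc27a3 and Slc27a4 were not called, nor were the oxidation genes Cpt1a, Hadha and Acadl, with log2 fold changes of -0.02 (SE 0.20) for Cpt1a, -0.04 (SE 0.16) for Hadha and -0.09 (SE 0.20) for Acadl.

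Genes of VEGF response and tip cells were lower. Of 20 tested, 12 were lower and 1 higher, with 10 below both groups and a median log2 fold change of -1.41. Of the lower members, Cxcr4, Unc5b, Vegfc and Dll4 are also in the arterial list and Adm and Vegfa in the hypoxia list. The 1 higher member, Dusp4, was not called without endocardial replicate 3, and without endocardial replicate 1 or with DESeq2 there were 2 higher members. Kdr, the main VEGF receptor, had 472, 617 and 733 CPM in endocardial libraries against 1340 to 2400 CPM in coronary ones (log2 fold change -1.56, SE 0.19, edgeR adjusted p = 4.39e-05). Apln, the apelin ligand of sprouting cells, had 20.7, 15.3 and 29.0 CPM against 124 to 135 CPM in arterial and 153 to 241 CPM in the venous libraries (-2.89, SE 0.23). Dll4, the Notch ligand of tip and arterial cells, had 22.4, 27.3 and 38.8 CPM against 51.6 to 142 CPM (-1.57, SE 0.27). The netrin receptor Unc5b fell by 2.84 (SE 0.27) and Vegfc by 2.33 (SE 0.29). Flt1 and Nrp1 did not pass the threshold against the coronary mean (log2 fold changes -0.48 and -0.37, edgeR adjusted p = 0.058 and 0.0524). In the hypoxia and glycolysis list 11 of 26 were lower and none higher, 7 of them below both, and without endocardial replicate 2 the 11 became 7. Ankrd37, a hypoxia-induced gene, had 9.15 to 11.1 CPM against 48.0 to 95.2 CPM in coronary libraries, and the glycolytic Pfkp fell by 1.8 (SE 0.23). Egln1, an oxygen sensor, fell by 1.35 (SE 0.17). Of 30 nuclear genes of oxidative phosphorylation 2 were lower and none higher, with neither below both groups; 5 were lower with batch as a block or with library totals alone, 4 without a filter and 1 to 4 when single libraries were left out.

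Arterial genes were lower in part, and several distinguished endocardium from arterial cells alone. Of 23 tested arterial markers, 12 were lower and 2 higher, but only 7 and 1 were apart from both groups. Gja5, the arterial connexin, had 5.35, 3.39 and 4.41 CPM in endocardial, 59.4, 84.3 and 100 CPM in arterial and 2.72, 5.87 and 4.61 CPM in the venous libraries, so that endocardial and venous levels overlapped. Its log2 fold change of -2.11 against the coronary mean came from the arterial libraries (-4.21 against arterial, -0.01 against venous), and the call was lost with the coronary libraries as 1 group (edgeR adjusted p = 0.236). Cxcl12 went the same way, at 8.01 to 12.9 CPM in endocardial, 135 to 331 CPM in arterial and 10.8 to 28.9 CPM in the venous libraries (edgeR adjusted p = 0.164 against venous libraries, and 0.138 against the coronary libraries as 1 group). Bmx, a tyrosine kinase of arterial and endocardial cells, was above both, at 73.2 to 92.9 CPM against 14.0 to 22.3 CPM in arterial and 4.71 to 8.87 CPM in the venous libraries (log2 fold change 2.79, SE 0.22). Gja4 had 33.5 to 60.9 CPM in endocardial and 35.5 to 67.7 CPM in arterial libraries, against 5.86 to 8.77 CPM in venous ones, and lost the call with the coronary libraries as 1 group. In the Notch pathway 6 of 21 tested genes were lower and 3 higher, 5 and 2 of them apart from both; without endocardial replicate 1, 5 were higher. The ligands differed: Dll1 had 52.7 to 62.3 CPM against 3.09 to 13.4 CPM in coronary libraries (log2 fold change 2.76), while Jag2 had 1.60 to 6.79 CPM against 30.9 to 60.8 CPM (-3.13). The targets Hey1 and Nrarp fell by 1.60 and 1.93, and Hey1 lost the call with the coronary libraries as 1 group (edgeR adjusted p = 0.0613). Jag1, Hes1 and the receptor Notch1 were not called.

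Of 24 tested endothelial transcription factors, 11 were lower and 4 higher, with 8 and 4 apart from both groups. The ETS factors Ets1, Ets2 and Fli1 fell by 1.12, 1.05 and 1.07 on the log2 scale, with Ets1 at 312 to 340 CPM in endocardial and 604 to 871 CPM in coronary libraries. Foxp1, Foxo1, Gata2 and Etv6 rose by 1.05, 0.89, 0.78 and 0.88. Klf2, the flow-induced factor, had 125, 118 and 132 CPM in endocardial, 63.3 to 66.8 CPM in arterial and 64.1 to 97.7 CPM in the venous libraries (log2 fold change 0.82, SE 0.16, edgeR adjusted p = 0.00152). Its endocardial libraries did not overlap the coronary ones, while its arterial and venous libraries overlapped each other. In the shear stress list 7 of 20 were higher and 3 lower, 4 and 3 of them apart from both. Of its members, 4 were higher without any one of arterial replicate 2, endocardial replicate 2, endocardial replicate 3 and venous replicate 3. The prostaglandin synthase Ptgs1 rose by 2.86 (SE 0.21), and the mechanosensitive channel Piezo2 fell by 1.97 (SE 0.16).

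Junction and caveolar genes were lower in part, and 9 and 7 members of these lists did not pass the test. In the junction list 10 of 23 were lower and 4 higher, 8 and 3 of them apart from both. The protocadherins split, with Pcdh17, Pcdh19 and Pcdh1 down by 2.65, 2.99 and 2.39 on the log2 scale and Pcdh7 up. Tjp1, a tight junction scaffold, had 391 to 433 CPM against 925 to 1320 CPM in coronary libraries, and VE-cadherin (Cdh5) fell by 0.80 (SE 0.19). Caveolin 1 (Cav1), the coat protein of caveolae, had 595, 683 and 872 CPM against 2370 to 3420 CPM (log2 fold change -1.98, SE 0.16, edgeR adjusted p = 1.5e-07). Of 12 caveolar and diaphragm genes, 4 were below both groups and 1, Plvap, above both, and Cavin2 was not called (-0.07, SE 0.12). Among 23 transporters 6 were lower and 2 higher, 6 and 1 of them apart from both. Of the transporters, 1 was higher without endocardial replicate 2 or venous replicate 1 and with the coronary libraries as 1 group, and 4 with DESeq2. The efflux pump genes Abcb1a, Abcc4 and Abcg2 fell by 2.91, 3.23 and 1.67. Of 18 pan-endothelial markers, 6 were lower and 2 higher, all apart from both groups; with batch as a block or no filter 10 were lower. Among 31 laminins, integrins and matrix receptors 10 were higher and 8 lower, 7 and 5 of them apart from both. Among 27 genes of coagulation and leukocyte adhesion 6 were higher and 5 lower, 3 and 4 of them apart from both. Among 43 guidance genes 12 were higher and 11 lower, 7 and 7 of them apart from both. Plxnc1, Sema3a and Ntn4 rose by 4.10, 3.23 and 2.97, and Sema7a, Unc5b and Robo4 fell by 3.89, 2.84 and 1.35; Ntn4 lost the call with the coronary libraries as 1 group.

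**Figure D3:**
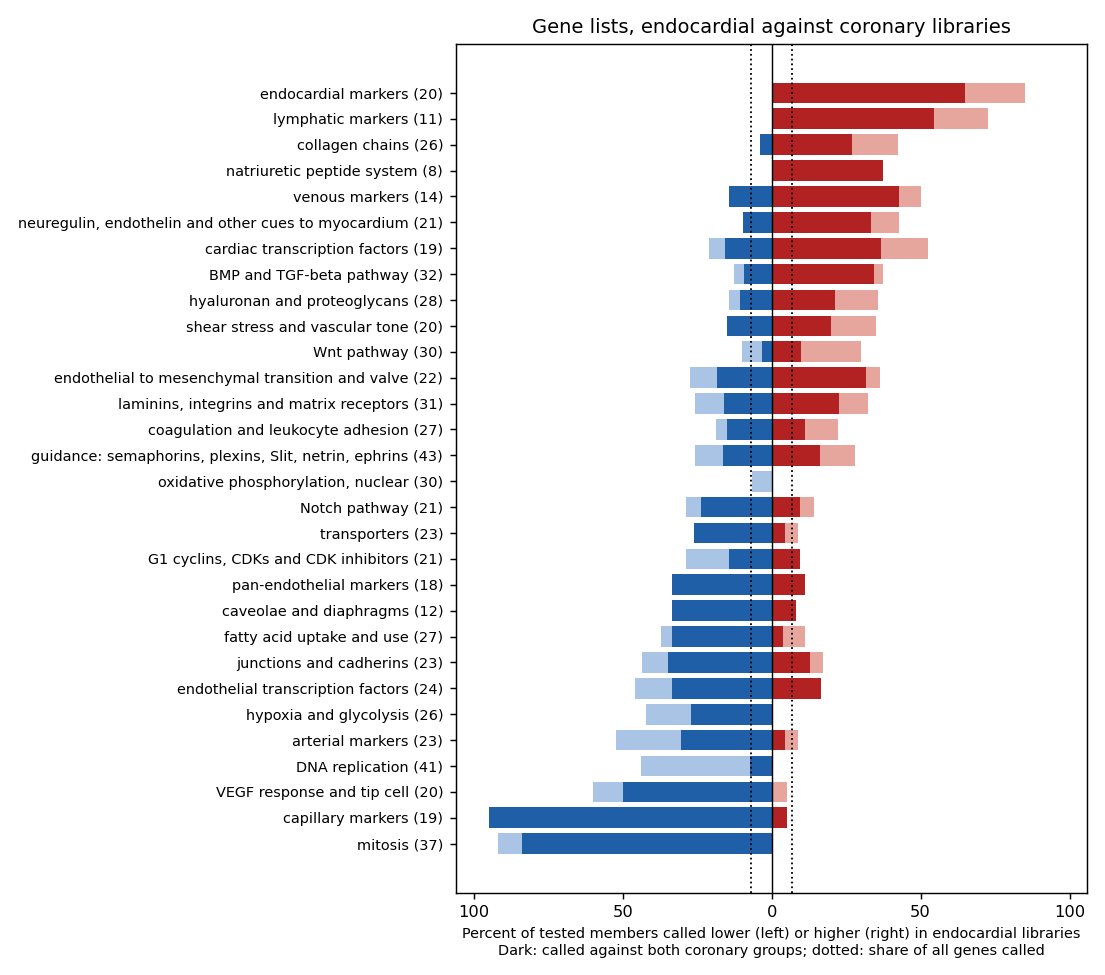
Share of the tested members of each gene list (number in brackets) called lower (left, blue) or higher (right, red) in endocardial libraries against the coronary mean, with the dark part called against both coronary groups and dotted lines at the 7.0% and 6.91% of all tested genes called in each direction. Capillary (18 of 19) and mitosis genes (34 of 37) lie farthest to the left and endocardial markers (17 of 20) farthest to the right. The lists were chosen with earlier results of these data known.

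Mitotic genes were lower in endocardial libraries. Of 37 tested, 34 were lower and none higher, 31 of them below both groups, with a median log2 fold change of -1.39; Kif20a, Plk1 and Cdc20 were not called. Mki67, the proliferation marker, had 536, 462 and 542 CPM in endocardial, 1910, 1180 and 1250 CPM in arterial and 1900, 1590 and 2330 CPM in the venous libraries (log2 fold change -1.71, SE 0.18, edgeR adjusted p = 3.25e-06). The spindle motor Kif11 had 37.7 to 52.1 CPM against 117 to 175 CPM in coronary libraries (-1.68, SE 0.16), and Top2a fell by 1.33 (SE 0.16). Genes of DNA replication were also lower against the mean, 18 of 41 with none higher, but only 3 were below both groups: 4 were lower against arterial and 19 against venous libraries. Tested against a 2-fold change, 8 mitosis and no replication genes were lower. Pcna, the clamp of the replication fork, had 214 to 261 CPM against 340 to 530 CPM (log2 fold change -0.91, SE 0.16). Among 21 genes of G1 control, 6 were lower and 2 higher; with batch as a block 4 were higher. The 2 higher were Cdkn1c (p57), a CDK inhibitor, and cyclin D2 (Ccnd2). Cdkn1c had 1170, 1570 and 1340 CPM in endocardial, 206 to 227 CPM in arterial and 127 to 156 CPM in the venous libraries (log2 fold change 2.96, SE 0.13, edgeR adjusted p = 1.53e-10). Ccnd2 had 516, 911 and 878 CPM against 146 to 205 CPM (2.15, SE 0.17). The other D-type cyclin gene named, Ccnd1, fell by 1.01 (SE 0.25) and was called against venous libraries alone, and the CDK inhibitor Cdkn1a fell by 1.28 (SE 0.28).

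**Figure D4:**
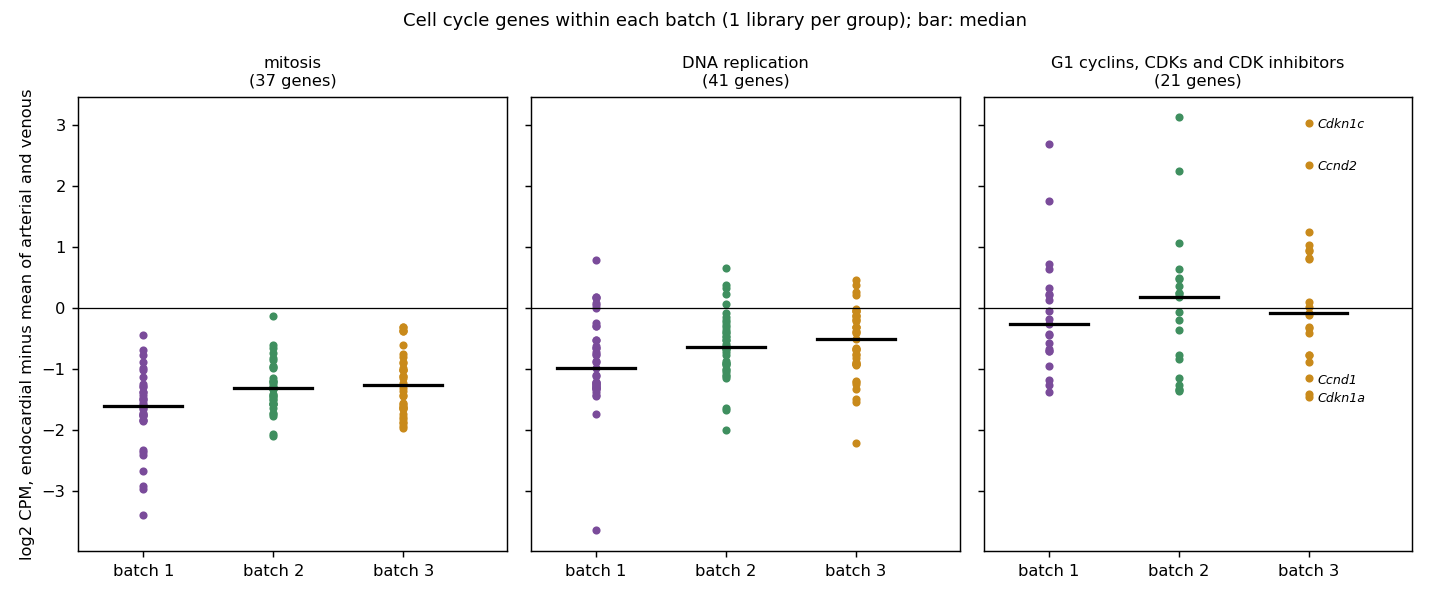
Log2 CPM difference between the endocardial library and the mean of the arterial and venous library of the same batch, 1 point per gene, for 37 mitosis, 41 DNA replication and 21 G1 genes, with a bar at the median. Every mitosis point lies below 0 in each of the 3 batches, and Cdkn1c and Ccnd2 stand above the other G1 genes, at 2.69 and 1.75 in batch 1, 3.13 and 2.25 in batch 2 and 3.04 and 2.35 in batch 3.

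Some called genes lost the call when a library was left out or the coronary libraries were taken as 1 group. Slc5a7, a choline transporter, had 58.5 to 62.4 CPM in endocardial and 0.0 to 6.25 CPM in coronary libraries, and its log2 fold change of 4.96 became 6.57 without arterial replicate 3; it lost the call without any one of arterial replicate 2 and endocardial or venous replicates 1, 2 and 3. Lbp and Pkhd1l1 rose by 4.01 and 4.26 against the mean, and by 4.95 and 5.24 without arterial replicate 1; Lbp was not called without venous replicate 3 (edgeR adjusted p = 0.0541), nor Pkhd1l1 with the coronary libraries as 1 group. Sema3g, a semaphorin of arteries, had 0.679 to 6.70 CPM in endocardial, 64.1 to 79.4 CPM in arterial and 9.46 to 17.5 CPM in the venous libraries. Its log2 fold change of -3.17 became -4.0 without endocardial replicate 2, and the call was lost without endocardial replicate 1 (edgeR adjusted p = 0.0566) and with the coronary libraries as 1 group. These genes are described by their levels only.

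Markers of other cell types and of handling were compared in the same way, and apart from the values given here their part in the results was not tested. Summed levels include list members that did not pass the filter on low counts. Of 19 cardiomyocyte genes 3 were higher and none lower, none apart from both; 1 was higher without endocardial replicate 2, endocardial replicate 3 or venous replicate 1, with library totals alone and with the coronary libraries as 1 group. Their summed level of 821 to 992 CPM in endocardial libraries overlapped that of venous libraries, 759 to 955 CPM, and lay above the 551 to 730 CPM of arterial ones. Mural cell genes summed to 349 to 496 CPM in endocardial, 1040 to 1500 CPM in arterial and 618 to 806 CPM in the venous libraries, with 4 of 15 lower and 1 higher, and the pericyte gene Rgs5 fell by 3.46 on the log2 scale (SE 0.32). Erythroid and platelet genes summed to 105 to 269, 549 to 1220 and 237 to 396 CPM in these groups, with 1 of 12 higher and 1 lower; across the other scalings, tools and filters, the block and single libraries left out, 0 to 2 were called in each direction. Epicardial genes summed to 48.0 to 67.7 CPM in endocardial and 178 to 232 CPM in coronary libraries; the member Wt1 had 17.6 to 23.7 CPM against 136 to 204 CPM (log2 fold change -3.05, SE 0.18). Of these genes 1 of 9 was lower, and 2 with library totals alone, DESeq2, no filter or batch as a block and without arterial replicate 1 or venous replicate 1. Wt1 made up most of the coronary epicardial sum. The median log2 fold change of the 9 tested epicardial genes was 0.69, with 5 above 0 and 4 below. Leukocyte genes summed to 40.0 to 59.5 CPM against 72.7 to 98.2 CPM, with 1 of 9 lower (2 with DESeq2), and of 6 neural crest and Schwann genes none was called. Immediate-early genes, which respond to dissociation, were in part higher: 5 of 20 were above both groups and none lower, or 1 lower with batch as a block, no filter or without arterial replicate 1. Their sum was 4890 to 5590 CPM in endocardial, 3690 to 4360 CPM in arterial and 3270 to 3690 CPM in the venous libraries, and Fosb had 510, 807 and 690 CPM against 208 to 249 CPM in coronary ones (log2 fold change 1.52, SE 0.14). Mitochondrially encoded genes summed to 41900 to 43800 CPM in endocardial, 25100 to 36600 CPM in arterial and 36800 to 38800 CPM in the venous libraries. Of 13, 3 were higher against the coronary mean, none of them apart from both groups. Against arterial libraries alone 5 were higher, and against venous libraries alone none. Against the coronary mean, 5 were higher with DESeq2 or no filter, 6 with limma-voom and 1 with the coronary libraries as 1 group. Without arterial replicate 1 there were 8, and without endocardial replicate 2 or 3 none.

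**Figure D5:**
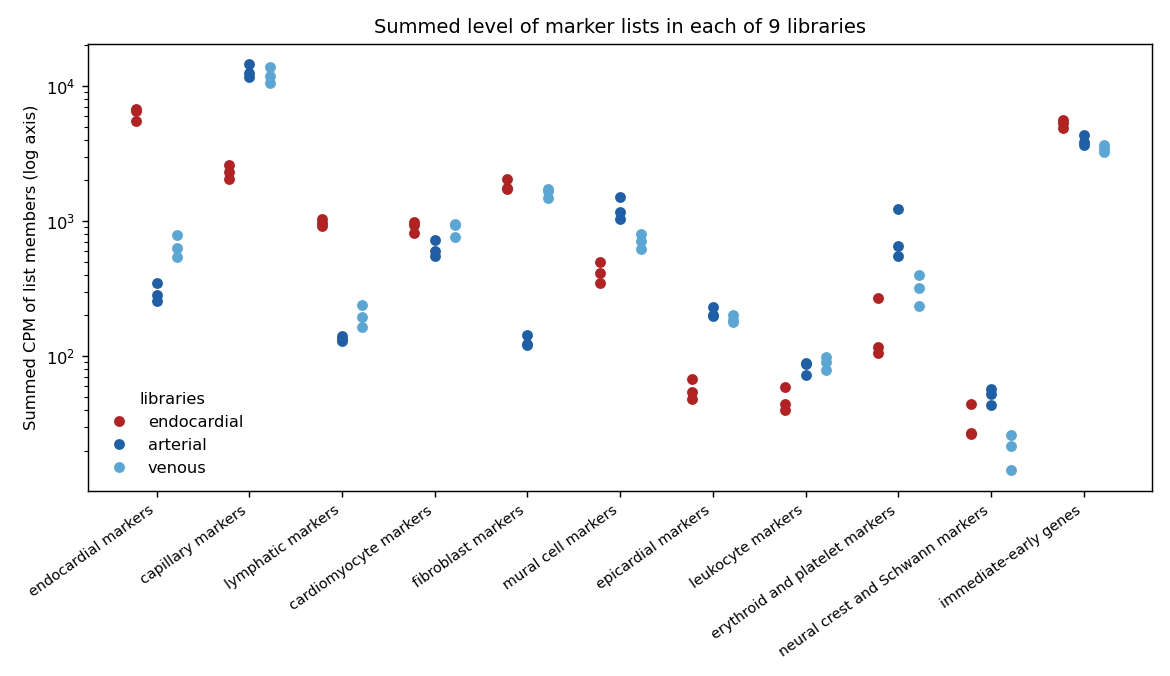
Summed CPM of the members of each marker list, also those below the filter on low counts, in each library (log axis), with 1 point per library for 3 endocardial, 3 arterial and 3 venous libraries. Fibroblast markers are near 121 to 143 CPM in arterial libraries and at 1480 CPM or more in all endocardial and venous ones. The sums of mural and of epicardial markers are lowest in the endocardial libraries, and most of the coronary epicardial sum is Wt1.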

How the data were processed

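RNA from sorted cells of 9 samples was sequenced as single reads after amplification of about 1 ng. Per the submitters' processing notes, CASAVA 1.8.2, cutadapt 1.3 and RSEM 1.2.3 were used with the mouse genome GRCm38 (Ensembl release 76). The authors deposited RSEM expected counts per gene, not normalised, for 41214 features (97.67% with a symbol). Neither aligner nor strand setting is given in the sources used here, so that reads of overlapping genes on opposite strands may be shared. Expected counts were rounded to whole numbers.

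From these, edgeR 4.0.16 (R 4.3.3) was used with TMM scaling, a filter on low counts (filterByExpr, minimum count 10) and robust quasi-likelihood F tests, with 1 mean per group over all 9 libraries and a threshold of 0.05 on p-values adjusted over 17103 genes. Standard errors (SE) were obtained as the size of the log2 fold change over the root of F. The code was tested on simulated data for the comparison with the coronary mean. Of 99 genes set to a 2-fold change 24.2% were called in the right direction, and of 98 set to a 4-fold change 58.2%. There were 6 false calls among 15804 genes. A gene that was not called may therefore still differ. Alternatives used DESeq2 1.42.0, limma 3.58.1 (voom), other scalings, no filter, batch as a block, the coronary libraries as 1 group, a test against a 2-fold change, and each library left out. With the coronary libraries as 1 group, any difference between arterial and venous libraries counts as spread, so that genes differing between them lose calls more readily. Total counts per library, between 12750553 and 19474419, set the counting precision, and the p-values rest on 3 libraries a group.

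The labels give batch as the replicate number, so that the number pairs libraries across groups. Deviations from the group means correlated by 0.083 to 0.165 between libraries of number 1, by 0.036 to 0.146 for number 2 and by -0.09 to 0.092 for number 3. Between libraries of different numbers they correlated by -0.271 to 0.16, so that the ranges overlap and do not settle the pairing. The gene lists (39) and the members were chosen with earlier results of these data known. Lists share members: the 881 matched entries were 768 distinct genes. Genes were named by rule: the 15 largest rises and falls apart from both groups without overlap and at an average log2 CPM no lower than 4, the 5 largest in each direction among genes that also differed between the coronary groups or were not called against both, for each list the 4 members with the lowest p and at most 2 called in the opposite direction to most of it, and 20 key genes. Predicted genes, pseudogenes and sort genes were left out, and some genes that the rule picks are not reported here. Other list members were named after their values were seen. Upstream sequences came from RefSeq (GRCm38.p6).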

Additional observations from a re-analysis of the deposited data

How the results depend on the processing

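The counts of called genes kept within 1.5 times of their value under other scalings, DESeq2, limma-voom, no filter on low counts, batch as a block and, where it gives a value, the coronary libraries as 1 group. The exception was the test against a 2-fold change, which called 658 genes against the coronary mean (407 higher and 251 lower), 682 against arterial and 442 against venous libraries, and 370 apart from both (211 higher and 159 lower), since it asks for a larger change. With library totals alone, 41.4% of the called genes were higher, against 49.6% with TMM. With each library left out in turn, 1805 to 2493 genes were called against the coronary mean (859 to 1270 higher, 946 to 1223 lower), 1507 to 2251 against arterial and 1130 to 1871 against venous libraries, and 969 to 1464 were apart from both (411 to 691 higher, 558 to 773 lower); the lowest count against venous libraries came without venous replicate 3. With batch as a block (paired by batch), 2722 genes were called, and of the genes named by rule Hbb-bs, Rassf2, Tnnt2 and mt-Nd4l lost the call, while Krt19, Npr1, Ppbp and Sdhb gained it; apart from these and the list counts given above, the block changed no other call among the genes named by rule. Of the 194 genes named by rule, 178 were called and 141 kept their call and direction under all alternatives but the 2-fold test. Among the 194 genes named by rule, for which alone single-gene values were recomputed, the direction turned only in Cd68, which was not called: its log2 fold change ran from -0.08 without endocardial replicate 2 to 0.93 without endocardial replicate 1; the cause was not tested. With 3 libraries a group, low genes such as Cytl1 and Nrg1, with under 10 arterial counts, have loosely set folds.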
